A study of Mus musculus with 686 samples.

Results

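Small RNA of gonadal adipose tissue (GAT) was compared with that of subcutaneous adipose tissue (SCAT) in ground-control mice, white fat depots of the abdomen and of the layer beneath the skin. The members are the libraries of live animal return (LAR) whose labels give GAT or SCAT and a ground arm, 40 of the 686 libraries of the series, 20 of each depot. All mice were female BALB/cAnNTac animals aged 3 or 8 months, and none had flown. The habitat ground control (HGC) was housed as in flight, in flight hardware with matched temperature, humidity and CO2, while the vivarium ground control (VGC) was kept in standard cages. Each depot had 10 HGC and 10 VGC libraries in LAR, 10 at each age, and each of the 20 mice gave both depots. Direction was then read in another 40 libraries, 20 of each depot, from other HGC and VGC mice of the terminal arm (TERM), whose carcasses were frozen whole and thawed before dissection, whereas LAR tissue was dissected fresh and then frozen. TERM mice were also collected earlier and under another anesthetic mix, per the study's methods. LAR ground mice were moved before collection, and LAR mice went through functional assays. Since all TERM mice differed in these ways, a difference between LAR and TERM cannot be told apart from them.

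White fat depots keep the positional identity of the body region in which they form, and this identity is carried in large part by the Hox genes. Several miRNA genes lie inside the Hox clusters, among them those of miR-10, miR-196 and miR-615, so that their levels follow position along the body axis. The miR-200 family, miR-205 and miR-203 are miRNAs of epithelium, which subcutaneous pads of female mice contain as the ducts of the mammary gland. miR-1, miR-133 and miR-206 belong to striated muscle, miR-143 and miR-145 to smooth muscle, and the miR-34/449 family to ciliated and germinal cells. Bulk fat tissue can mix cell types, so that in these libraries fewer cells of a type and less RNA per cell cannot be told apart.

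The mature sequences of the miRNAs on which the comparison turns are given here from RefSeq on GRCm38.p6, with the seed (bases 2 to 8, which pair with targets) in capitals. The first 3 are the marker miRNAs of either depot and the sister of miR-196a, the next 4 are members of the miR-200 family and the last 4 recur in the results.
miR-196a-5p: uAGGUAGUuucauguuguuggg
miR-196b-5p: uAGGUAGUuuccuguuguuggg
miR-205-5p: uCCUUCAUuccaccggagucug
miR-200b-3p: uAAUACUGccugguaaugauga
miR-200c-3p: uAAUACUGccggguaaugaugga
miR-429-3p: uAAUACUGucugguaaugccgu
miR-141-3p: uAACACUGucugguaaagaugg
miR-146b-5p: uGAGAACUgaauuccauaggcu
miR-1247-5p: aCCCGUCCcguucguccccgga
miR-206-3p: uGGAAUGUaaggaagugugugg
miR-34c-3p: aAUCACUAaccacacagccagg

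miR-196a and miR-196b share the seed and differ by A12C, with the base of miR-196a first and positions counted from 1 at the 5′ end. On GRCm38.p6, miR-196a is encoded by Mir196a-1 (chr11:96265187-96265208, plus strand) and Mir196a-2 (chr15:102973365-102973386, plus strand), and miR-196b by Mir196b (chr6:52230129-52230150, minus strand). miR-205 comes from Mir205 (chr1:193507503-193507524, minus strand). miR-200b, miR-200c and miR-429 share 1 seed, and miR-141 has another.

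Counts on miRNAs ranged, in units of 1000000 (M), from 0.594 to 5.40 M per library in LAR GAT and from 0.554 to 4.14 M in LAR SCAT, with medians of 1.78 and 3.00 M. In TERM the medians were 1.87 and 2.68 M. The miRNA profile of each library was set against the median profiles of the 13 tissues of the series. Of the 40 LAR libraries, 10 were nearest to another tissue than their label, 7 of the 10 in the 11 sequencing pools left out below and 3 of the 30 outside them. In those pools GAT of mouse VGC1 was nearest to pancreas, GAT of VGC4 to liver, GAT of HGC14 to mesenteric fat (MAT), SCAT of HGC11 and HGC16 to diaphragm, SCAT of VGC12 to spleen and SCAT of VGC11 to GAT. Outside them, GAT of VGC2 was nearest to brown fat (BAT), and SCAT of VGC3 and VGC14 to GAT. In TERM, 5 of 6 libraries of these pools and 0 of the other 34 were nearest to another tissue. No miRNA is known to define white fat alone, so that the label was checked by the whole profile, and the depots are compared with all 40 LAR libraries and with the 30 (15 GAT, 15 SCAT) outside the pools.

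miR-196a-5p, from the Hox clusters, was higher in GAT. Its level, in counts per 1 M miRNA counts of the library (CPM), was 1.97 at the lowest, 2549 at the median and 7391 at the highest in LAR GAT, and 4.83, 30.1 and 5486 in LAR SCAT. The depots overlapped through few libraries, with GAT at 1.97 in VGC4 and 78.3 in VGC1, and SCAT at 5486 in VGC3, 2876 in VGC11, 2044 in VGC14 and 312 in HGC16, all of them nearest to another tissue than their label. SCAT of VGC2, nearest to its own label and outside the pools, stood at 449. GAT was higher in 16 of 20 mice. The log2 fold change of GAT over SCAT was 3.18 (SE 0.69, edgeR quasi-likelihood adjusted p = 0.00273), in a fit that did not pair the depots of a mouse.

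Outside the 11 pools the levels of miR-196a-5p were 820.5, 2647 and 7391 in GAT against 7.89, 25.5 and 5486 in SCAT, and the log2 fold change was 3.68 (SE 0.67, edgeR adjusted p = 0.000198). Without the pools and the 3 further libraries nearest to another tissue, which lie outside the pools, it was 5.49. Those 3 were picked by the same miRNA counts, and 2 of them are SCAT libraries nearest to GAT. A larger fold without them is therefore part of the choice. In TERM the depots did not overlap, with 573, 2334 and 5918 in GAT and 0.65, 18.8 and 286 in SCAT, and GAT was higher in 20 of 20 mice (log2 fold change 6.24, SE 0.53, edgeR adjusted p = 9.98e-13). The fold was larger in TERM than in LAR, by 3.06 on the log2 scale with all libraries (edgeR adjusted p = 0.0183) and by 3.30 outside the pools (adjusted p = 0.00134). This difference was not fitted without the 3 further libraries, where the LAR fold was 5.49.

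miR-205-5p, an epithelial miRNA, was higher in SCAT. Its levels were 23.6, 588 and 6850 CPM in LAR GAT and 63.2, 7557 and 14654 in LAR SCAT, so that the depots overlapped, and SCAT was higher in 14 of 20 mice. The log2 fold change was −2.09 (SE 0.61, edgeR adjusted p = 0.0242). With the mouse as a block it was −2.54, and the call was lost (adjusted p = 0.0855). Outside the pools it was −2.43 (SE 0.55, adjusted p = 0.00226), and −3.56 with the block (adjusted p = 0.0095). In TERM the levels were 332, 1704 and 6346 in GAT and 21.0, 6772 and 20751 in SCAT (log2 fold change −2.02, SE 0.42, edgeR adjusted p = 0.000231), with SCAT higher in 17 of 20 mice. Outside the pools the TERM depots did not overlap, as GAT reached 3763 at most and SCAT began at 4295. The fold did not differ detectably between LAR and TERM (difference −0.07, adjusted p = 0.982).

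**Figure D1:**
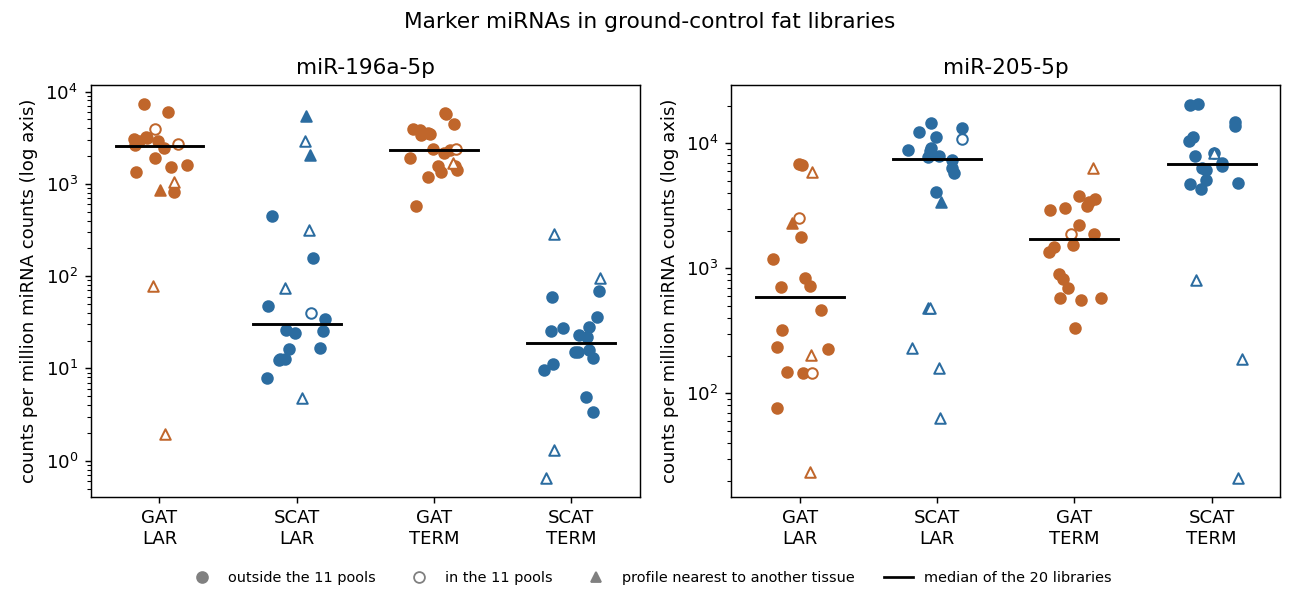
CPM of miRNA counts (log axis) of miR-196a-5p (left) and miR-205-5p (right) in each ground-control fat library, 20 per column, with black bars at the medians. Open symbols are libraries of the 11 pools and triangles are libraries nearest to another tissue. The miR-196a-5p medians stand at 2549 in GAT and 30.1 in SCAT of LAR. Its 2 lowest GAT points of LAR are triangles, as are the SCAT points at 5486, 2876 and 2044.

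Across all miRNAs, edgeR called 59 of 813 between the depots of LAR at an adjusted p under 0.05, 37 higher in GAT (4.55%) and 22 lower (2.71%). Outside the pools, 99 of 764 were called, 61 higher (7.98%) and 38 lower (4.97%), and 35 miRNAs were called in both. In TERM, 157 of 819 were higher in GAT (19.2%) and 63 lower (7.69%), and outside the pools 190 of 765 (24.8%) and 69 (9.02%). The mouse as a block left 25 calls in LAR (9 higher, 16 lower), of which 23 were among the 59, and 27 outside the pools (7 higher, 20 lower). The median log2 fold change over all miRNAs was 0.21 in LAR, 0.07 with TMM factors and −0.29 when counts were scaled to the total of the 7 RNA classes, which gave 23 higher and 47 lower calls.

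The depots were spread unevenly over the 8 library plates, and plate 4 held 4 LAR libraries of GAT and 0 of SCAT while plate 8 held 0 and 5. With plate in the fit 5 miRNAs were called, miR-1247-3p and miR-344-3p higher in GAT and miR-146b-5p, miR-146b-3p and miR-1963 lower, of which 4 are named after their values were seen. The log2 fold change of miR-196a-5p was then 3.15 (adjusted p = 0.103) and that of miR-205-5p −2.51 (adjusted p = 0.0979). Within plates, the median of miR-196a-5p was higher in GAT on 5 of the 6 plates with both depots in LAR and on 6 of 6 in TERM, and that of miR-205-5p was higher in SCAT on 5 of 6 and 6 of 6.

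The LAR calls were read in the TERM mice. Of the 22 miRNAs lower in GAT of LAR, 22 were lower in TERM too and 18 were called there, against 35.9% lower and 7.96% called among all 766 miRNAs tested in both. Of the 37 higher in GAT, 34 were tested in TERM, 23 were higher and 14 were called, against 64.1% and 19.5% of all, and 1 was called lower. Outside the pools, 54 of 60 were higher and 35 called, against 66.8% and 24.6%, and 35 of 37 were lower and 29 called, against 33.2% and 9.03%.

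**Figure D2:**
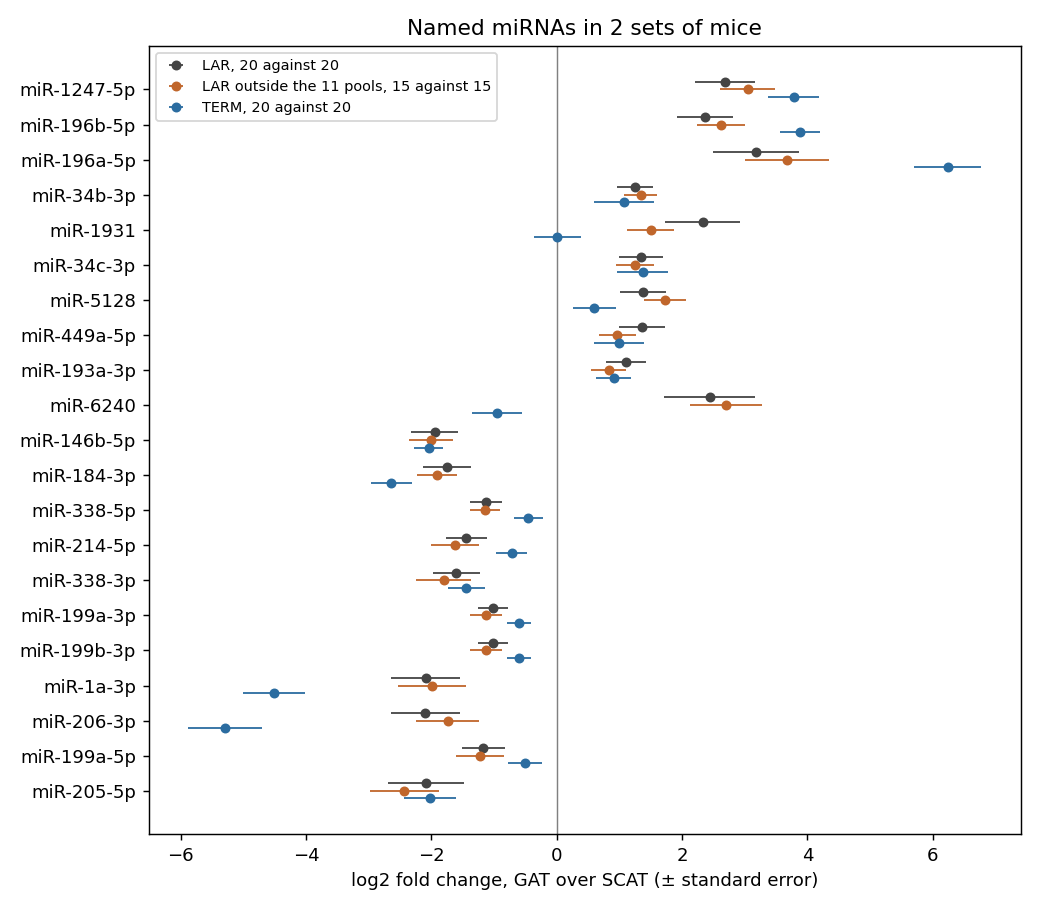
Log2 fold change of GAT over SCAT with its standard error (horizontal axis) for the miRNAs named by rule and miR-205-5p, in LAR (20 against 20), LAR outside the 11 pools (15 against 15) and TERM (20 against 20). miR-196a-5p moves from 3.18 in LAR to 6.24 in TERM, miR-146b-5p stays near −2, and miR-1931 and miR-6240 fall to 0.01 and −0.95 in TERM.

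Several miRNAs of the Hox clusters were higher in GAT. Of 11 members 9 passed the filter on low counts, and 4 were called higher and 0 lower in LAR, 7 and 0 outside the pools and 9 and 0 in TERM, against 4.55%, 7.98% and 19.2% higher of all miRNAs, with median log2 fold changes of 1.25, 1.45 and 1.90 beside 0.21, 0.19 and 0.26 over all miRNAs. With the mouse as a block 3 were called. miR-196b-5p, which comes from another Hox cluster than miR-196a, had 10.2, 2060 and 4485 CPM in GAT and 30.0, 209 and 3078 in SCAT, with GAT higher in 17 of 20 mice (log2 fold change 2.37, SE 0.45, edgeR adjusted p = 0.000595). In TERM its levels were 617, 2801 and 6872 against 19.7, 177 and 628, and GAT was higher in every one of 20 mice (3.88). The other arm of Mir196a-2, miR-196a-2-3p, was scarce, with a median of 4.64 in GAT and 0 in SCAT, and had a log2 fold change of 3.59 in LAR and 5.70 in TERM.

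The miR-10 and miR-615 members had smaller folds. miR-10b-5p had medians of 2964 in GAT and 1348 in SCAT, and its log2 fold change was 0.75 with all LAR libraries, 0.81 outside the pools (edgeR adjusted p = 0.0230) and 1.44 in TERM. miR-10a-5p had 0.48, 0.52 and 1.16. miR-615-3p, which lies in the same cluster as Mir196a-2, missed the threshold with all libraries (1.25, adjusted p = 0.0711) and passed it outside the pools (1.45, adjusted p = 0.00125), while miR-615-5p passed in both. With the block neither arm of Mir615 passed outside the pools (adjusted p = 0.149 and 0.2), nor did miR-10b-5p (0.369), while miR-196a-2-3p and miR-196b-5p did. Scaled to the total of the 7 classes, miR-10a-5p and miR-10b-5p turned to −0.23 and −0.05 and the other members kept their direction.

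Most epithelial miRNAs were lower in GAT where libraries of the 11 pools were left out. Of 18 members tested, 0 were called higher and 1 lower in LAR, which was miR-205-5p. At an unadjusted p under 0.05 there were 3. Outside the pools 0 of 17 were higher and 11 lower, and in TERM 1 of 18 was higher and 15 lower, where 2.71%, 4.97% and 7.69% of all miRNAs were lower. The medians were −0.62, −2.28 and −1.51 beside 0.21, 0.19 and 0.26 over all miRNAs. With the block 2 were called in LAR, and scaled to the total of the 7 classes miR-200a-3p, miR-141-3p, miR-203-5p and miR-96-5p turned from higher to lower in GAT, none of them called. Summed, the 18 members made up 1009 to 14058 CPM in GAT and 2718 to 30182 in SCAT outside the pools, with medians of 3825 and 22285. Without GAT of VGC1 alone, the library nearest to pancreas, miR-200c-3p was called (−2.34, adjusted p = 0.00333), as was miR-141-3p (−1.91, adjusted p = 0.0102).

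miR-200c-3p, the most abundant of the miR-200 family, had 130, 427 and 34480 CPM in LAR GAT and 175, 5946 and 11298 in SCAT. SCAT was higher in 16 of 20 mice, but the log2 fold change of −1.09 did not pass (edgeR adjusted p = 0.303). Outside the pools GAT ranged from 130 to 2968 with a median of 413, and the fold change was −2.85 (SE 0.46, adjusted p = 5.88e-05; with the block −3.42, adjusted p = 0.00155). miR-200b-3p, miR-429-3p, miR-200a-3p and miR-141-3p went from −0.43, −0.10, 0.26 and 0.50 with all libraries to −2.37, −2.30, −2.28 and −2.39 outside the pools, each called, and each was called in TERM at −1.47, −1.31, −1.49 and −2.11. miR-183-5p, which is shared with sensory epithelium, had −1.49 outside the pools. miR-203-3p, a miRNA of stratified epithelium, did not follow them, with 0.37, 0.31 and 0.66, and was called higher in GAT of TERM (adjusted p = 0.0103).

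Most miRNAs of striated muscle were lower in GAT with all libraries. Of 9 members tested, 0 were higher and 6 lower in LAR, 0 and 4 outside the pools and 0 and 8 in TERM, where 2.71%, 4.97% and 7.69% of all miRNAs were lower. The medians were −1.82, −1.40 and −4.31 beside 0.21, 0.19 and 0.26 over all miRNAs. miR-1a-3p, found in both heart and skeletal muscle, had 92.5, 652 and 25229 CPM in LAR GAT and 285, 11793 and 34473 in SCAT, with SCAT higher in 16 of 20 mice (−2.09, SE 0.55, edgeR adjusted p = 0.0102; outside the pools −1.99, adjusted p = 0.0138). miR-206-3p, specific to skeletal muscle, had 7.22, 1269 and 26398 in GAT and 128, 9248 and 57977 in SCAT (−2.10, SE 0.55, adjusted p = 0.0103; outside the pools −1.74, adjusted p = 0.0183), and SCAT was higher in 18 of 20 mice. The most abundant member, miR-133a-3p, had medians of 8828 and 87805 (−1.79, adjusted p = 0.0333), and its call was lost outside the pools (−1.37, adjusted p = 0.08; with the block −2.51, adjusted p = 0.103). The heart miRNAs miR-208a-3p, miR-208b-3p and miR-499-5p did not pass in LAR, at 1.53, −0.72 and −1.28.

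Summed over the 9 members, muscle miRNAs made up 326, 11056 and 351650 CPM in LAR GAT and 5058, 119763 and 625725 in SCAT, and outside the pools 4788, 14019.5 and 351650 against 6309, 121791 and 269695. The depots overlapped in both. In TERM outside the pools they did not, since GAT ranged from 3257 to 10707 and SCAT from 93175 to 408630. The fold of miR-206-3p was larger in TERM (−5.29) than in LAR, with a difference of 3.20 (edgeR adjusted p = 0.00797). The summed level moved with the depot in each set, and its part in the folds of other miRNAs was not tested.

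Outside these lists, miR-146b-5p, known as a brake on inflammatory signalling, was lower in GAT. It had 23.6, 165 and 752 CPM in LAR GAT and 64.8, 729 and 2560 in SCAT, and SCAT was higher in 18 of 20 mice and, outside the pools, in 11 of 11. The log2 fold change was −1.95 (SE 0.37, edgeR adjusted p = 0.000595), with a call outside the pools (SE 0.35, adjusted p = 0.000112), −1.78 with the block (adjusted p = 0.00561), −2.10 with plate (adjusted p = 0.0352), −2.55 when scaled to the 7 classes and −2.04 in TERM (SE 0.23, adjusted p = 1.3e-09). In TERM the levels were 85.9, 187 and 336 in GAT against 175, 734 and 1860 in SCAT, and SCAT was higher in 20 of 20 mice. miR-184-3p had medians of 39.2 and 147, and log2 fold changes of −1.75 in LAR (adjusted p = 0.00273), −1.91 outside the pools (adjusted p = 8.26e-05) and −2.64 in TERM.

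miR-1247-5p, whose gene Mir1247 lies at the Dio3 end of the imprinted Dlk1-Dio3 region, was higher in GAT. Its levels were 6.73, 89.2 and 358 in LAR GAT and 0, 5.61 and 123 in SCAT, and GAT was higher in 16 of 20 mice (log2 fold change 2.68, SE 0.48, edgeR adjusted p = 0.000443). It was 3.05 outside the pools, 3.25 with the block (adjusted p = 0.00135) and 3.78 in TERM (adjusted p = 6.43e-10), where GAT was higher in 20 of 20 mice. Of the miRNAs listed for the rest of that region, 0 of the 29 tested were called in LAR by edgeR, with 0 at an unadjusted p under 0.05 and a median of −0.01, and 4 were called higher in TERM, where 19.2% of all miRNAs were. miR-193a-3p, a miRNA linked to brown fat, had medians of 4952 and 2899 and a log2 fold change of 1.11 (SE 0.32, adjusted p = 0.0216; with the block adjusted p = 0.0435) and 0.91 in TERM (adjusted p = 0.0121). Outside the pools it had 0.83 (adjusted p = 0.0473), and the call was lost there with the block (0.77, adjusted p = 0.289) and without the 3 further libraries (0.76, adjusted p = 0.077).

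The mesenchymal list of miR-199 and miR-214, which share a transcript in fibroblasts, had members that were lower in GAT. Of 5 members 3 were called lower and 0 higher in each of LAR, LAR outside the pools and TERM, against 2.71%, 4.97% and 7.69% lower of all miRNAs, and the called members differed between LAR and TERM. With the mouse as a block 2 were called in LAR. miR-199a-3p and miR-199b-3p, whose mature sequences are identical so that their counts cannot be separated, had medians of 3882 in GAT and 8006 in SCAT for miR-199a-3p, a fold of −1.02 (edgeR adjusted p = 0.00451) and SCAT higher in 18 of 20 mice. Outside the pools the fold was −1.13 (adjusted p = 0.00247) and in TERM −0.60 (adjusted p = 0.0172). miR-214-5p had −1.44 (adjusted p = 0.00373), −1.62 outside the pools (adjusted p = 0.00294) and −0.72 in TERM (adjusted p = 0.0289). miR-199a-5p, at −1.17 (adjusted p = 0.0231), lost its call with the block (adjusted p = 0.123), without SCAT of HGC1 or of VGC16, and in TERM (−0.50, adjusted p = 0.154). miR-338-5p was called in LAR (−1.13, adjusted p = 0.00325) and outside the pools (−1.14, adjusted p = 0.000905) but not in TERM (−0.45, adjusted p = 0.136). miR-338-3p was called in both (−1.60 and −1.44), and outside the pools (−1.80, adjusted p = 0.00478), but not in LAR with the block (adjusted p = 0.101).

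The miR-34/449 family, known from ciliated epithelium of the reproductive tract and from the gonads, had members that were higher in GAT. Of 15 members of the gonad and ciliated tract list 6 passed the filter in LAR, of which 3 were called higher (4.55% of all miRNAs), 0 lower and 3 not at all, and in TERM 3 of 8 were higher (19.2%) and 0 lower. Outside the pools 3 of 5 were higher in LAR (7.98%), at a median of 0.97, and 7 of 7 in TERM (24.8%), at a median of 2.10 in place of 1.20. With the mouse as a block 0 were called by edgeR and 3 had an unadjusted p under 0.05. miR-34c-3p had medians of 106 and 32.5 and log2 fold changes of 1.34 (adjusted p = 0.0102) in LAR, 1.25 outside the pools (adjusted p = 0.00478) and 1.37 in TERM (adjusted p = 0.0106). miR-34b-3p had 1.25 (adjusted p = 0.00385), 1.34 outside the pools (adjusted p = 0.000396) and 1.08 in TERM (adjusted p = 0.0865). miR-449a-5p had 1.36 (adjusted p = 0.0134), 0.97 (adjusted p = 0.0219) and 0.99 (adjusted p = 0.0589). The 3 members not called in LAR were miR-34b-5p (0.81, adjusted p = 0.117), miR-34c-5p (0.66, adjusted p = 0.26) and miR-449c-5p (1.94, adjusted p = 0.0636). Without GAT of HGC14, which stood at 349 and was nearest to mesenteric fat, miR-449a-5p had 0.68 (adjusted p = 0.101). miR-202-3p, which is largely confined to the gonads, had a median of 0 in both depots of LAR and was not tested there, while in TERM its levels were 0.386, 4.86 and 297 in GAT and 0, 0 and 6.00 in SCAT (log2 fold change 4.93).

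The smooth muscle miRNAs differed between the depots in TERM. In LAR 0 of 4 were called by edgeR and 0 had an unadjusted p under 0.05, outside the pools 1 was called higher, and in TERM 4 of 4, against 4.55%, 7.98% and 19.2% higher of all miRNAs. miR-145a-5p had log2 fold changes of 0.41, 0.69 (adjusted p = 0.0219; with the block 0.408) and 1.63, with medians of 35450 in GAT and 11081 in SCAT of TERM and of 11768 and 9481 in LAR. miR-143-3p had 0.15, 0.24 and 1.17. All 4 turned to lower in GAT of LAR, at −0.30 to −0.06, when scaled to the total of the 7 classes. The TERM folds of both were larger than those of LAR, by 1.22 (edgeR adjusted p = 0.00777) and 1.01 (adjusted p = 0.02), and outside the pools by 0.90 (adjusted p = 0.0452) and 0.85 (adjusted p = 0.0908).

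Of 20 miRNAs linked to adipogenesis, 3 were called higher in GAT and 0 lower in LAR (4.55% of all miRNAs were higher), 2 higher outside the pools (7.98%) and 6 in TERM (19.2%), with a median of 0.30 in LAR beside 0.21 over all. Among the LAR calls was miR-375-3p, which rested on GAT of VGC1. miR-130a-3p, which targets Pparg, had 2130, 6840 and 12946 CPM in GAT and 656, 3798 and 7895 in SCAT (log2 fold change 0.74, edgeR adjusted p = 0.0329; outside the pools 0.72, adjusted p = 0.0133), and 1.02 in TERM with GAT higher in 20 of 20 mice. Its call was lost with the block (adjusted p = 0.119) and in 6 of 40 fits that left out 1 library each. miR-335-5p, a miRNA of the imprinted Mest gene, had medians of 35.4 and 18.6 (0.93, adjusted p = 0.0242), with 1.02 outside the pools (adjusted p = 0.0149) and 1.04 in TERM. Of 7 miRNAs linked to thermogenic fat, miR-193a-3p was called in LAR, and miR-365-3p followed it outside the pools (1.05, adjusted p = 0.00655; with the block 0.0708) and in TERM (1.34). miR-455-5p had −0.79 in TERM and was called lower there.

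Several high folds in LAR fell when a single library nearest to another organ was left out. All 4 pancreas miRNAs were called higher in GAT with all libraries (4.55% of all miRNAs), at a median of 4.19, and 0 outside the pools by edgeR (7.98%), where 0 had an unadjusted p under 0.05. GAT of VGC1 held 16550 CPM of miR-217-5p against medians of 3.96 in GAT and 3.99 in SCAT, and without it the fold was 0.50 (adjusted p = 0.696) in place of 5.02. miR-375-3p, on both the pancreas and the adipogenesis list, fell from 3.76 to 0.37 without that library (adjusted p = 0.675), and miR-1931 from 2.33 to 0.81 (adjusted p = 0.248). Outside the 11 pools, which also leaves out that library, miR-1931 was called at 1.5 (adjusted p = 0.00655), and without the 3 further libraries as well at 1.73 (adjusted p = 0.00078). Of 4 kidney and gut miRNAs 4 were called higher in LAR (4.55%), 1 outside the pools (7.98%) and 0 in TERM (19.2%) by edgeR, with 1 at an unadjusted p under 0.05. In TERM outside the pools 2 of the 4 were called higher (24.8%), at a median of 0.99. Without GAT of VGC4 the fold of miR-192-5p went from 3.09 to 1.98 (adjusted p = 0.0501) and that of miR-194-5p from 2.35 to 1.5 (adjusted p = 0.0687), and neither passed the threshold, though positive folds remained. miR-802-5p, at 4.64 (adjusted p = 0.00238), kept its call in each of 40 fits that left out 1 library, with folds from 3.13 to 5.06, but had 1.94 outside the pools (adjusted p = 0.0942).

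The liver miRNA miR-122-5p was highest in 5 LAR libraries, at 350290 in GAT of VGC4, 183492 in GAT of HGC5, 96767 in GAT of VGC2, 40227 in SCAT of HGC4 and 27539 in SCAT of VGC1, against medians of 379 in GAT and 595 in SCAT. Of these, GAT of VGC4 was nearest to liver and GAT of VGC2 to brown fat. miR-122-3p was called in LAR (adjusted p = 0.0441) and not outside the pools (2.47, adjusted p = 0.13), turned to −0.41 with the block and lost the call in 19 of the 40 fits that left out 1 library. In TERM it was called higher in GAT (2.07, adjusted p = 0.000954), while miR-122-5p was not (0.62, adjusted p = 0.45), and outside the pools both liver miRNAs were called there (24.8% of all miRNAs), at 2.67 (adjusted p = 2.97e-06) and 1.42 (adjusted p = 0.0381). Summed, they had TERM medians of 2195 CPM in GAT and 598 in SCAT, and the depots overlapped. miR-6240 was called at 2.44 (adjusted p = 0.0295) through GAT of HGC16 and GAT of VGC1, and lost the call without either of them and with the block (adjusted p = 0.507). Outside the pools, where GAT of HGC16 remains, its fold was 2.70 (adjusted p = 0.00105; with the block 0.75, adjusted p = 0.289), and in TERM it was −0.95. miR-5128 had 1.38 in LAR (adjusted p = 0.0119; with the block 0.108) and 0.60 in TERM (adjusted p = 0.187), with 1.73 outside the pools (adjusted p = 0.000396).

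Of 12 leukocyte miRNAs, 0 were called in LAR and 0 outside the pools by edgeR, and 0 had an unadjusted p under 0.05 in either. In TERM 3 were called lower in GAT (7.69% of all miRNAs), miR-155-5p (−1.40), miR-142a-5p (−1.32) and miR-146a-5p (−1.04), and their highest values, 9745, 5292 and 22266 CPM, were in SCAT of VGC2, which is in the 11 pools and was nearest to spleen. Outside the pools they had −0.73 (adjusted p = 0.00599), −0.46 (adjusted p = 0.226) and −0.43 (adjusted p = 0.11), and the highest summed level of the list in SCAT of TERM was 38736 in place of 270895. Of 5 erythroid miRNAs, 0 were called in LAR, with 1 at an unadjusted p under 0.05, and 4 were called higher outside the pools (7.98% of all miRNAs). In TERM 0 of the 5 were called by edgeR, with 2 at an unadjusted p under 0.05, and outside the pools 2 were called higher (24.8%). miR-451a had 0.60 with all libraries, 1.19 outside the pools (edgeR adjusted p = 0.000401; with the block 0.92, adjusted p = 0.0974) and 0.62 in TERM, and without SCAT of HGC11, nearest to diaphragm, it had 0.99 (adjusted p = 0.00384). Summed erythroid miRNAs outside the pools ranged from 13669 to 71832 in GAT and from 8750 to 21381 in SCAT. Of 2 endothelial miRNAs 0 were called in LAR, with 1 at an unadjusted p under 0.05, and 1 was called higher in TERM (19.2%), and of 6 brain miRNAs 0 were called in either set, with 1 and 0 at an unadjusted p under 0.05. Outside the pools 1 of 5 brain miRNAs was called lower in TERM (9.02%).

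**Figure D3:**
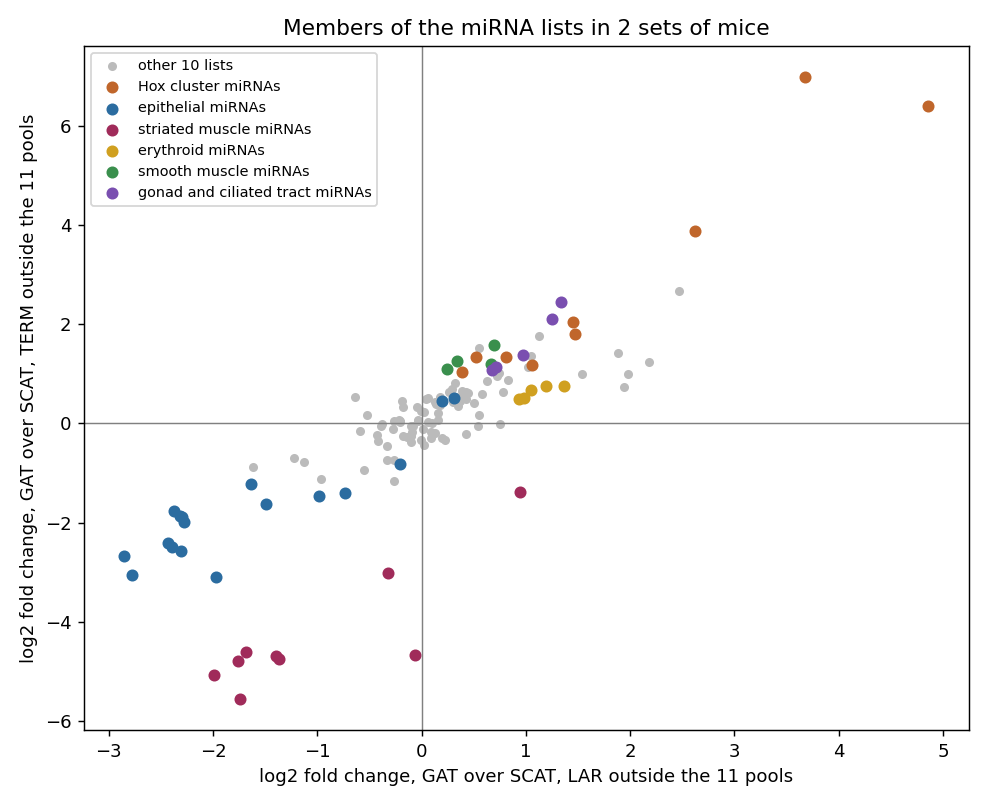
Log2 fold change of GAT over SCAT for members of the 16 miRNA lists, in LAR outside the 11 pools (horizontal axis) and TERM outside the 11 pools (vertical axis), 1 point per miRNA. Hox cluster miRNAs lie at the upper right, miR-200 and miR-205 members near −2 on both axes, and striated muscle miRNAs lower in TERM than in LAR.

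The levels in the fat depots were set beside those of the other tissues in ground LAR mice. miR-196a-5p had its highest medians in kidney, with 2616 CPM, and in GAT, with 2549, and their ranges overlapped. Mesenteric fat came next with 172, while SCAT at 30.1 ranked 6 of 13, near spleen at 41.0 and thymus at 34.1, from which its range did not separate it. miR-196b-5p had the same order at its top, with 6631 in kidney, 2060 in GAT and 426 in mesenteric fat, and SCAT was 4 of 13 at 209. miR-205-5p was highest in thymus, with a median of 21408, followed by SCAT at 7557, brown fat at 1234 and GAT at 588. miR-1247-5p had its highest median in GAT. In liver miR-205-5p reached 24537 in 1 library against a median of 39.2.

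**Figure D4:**
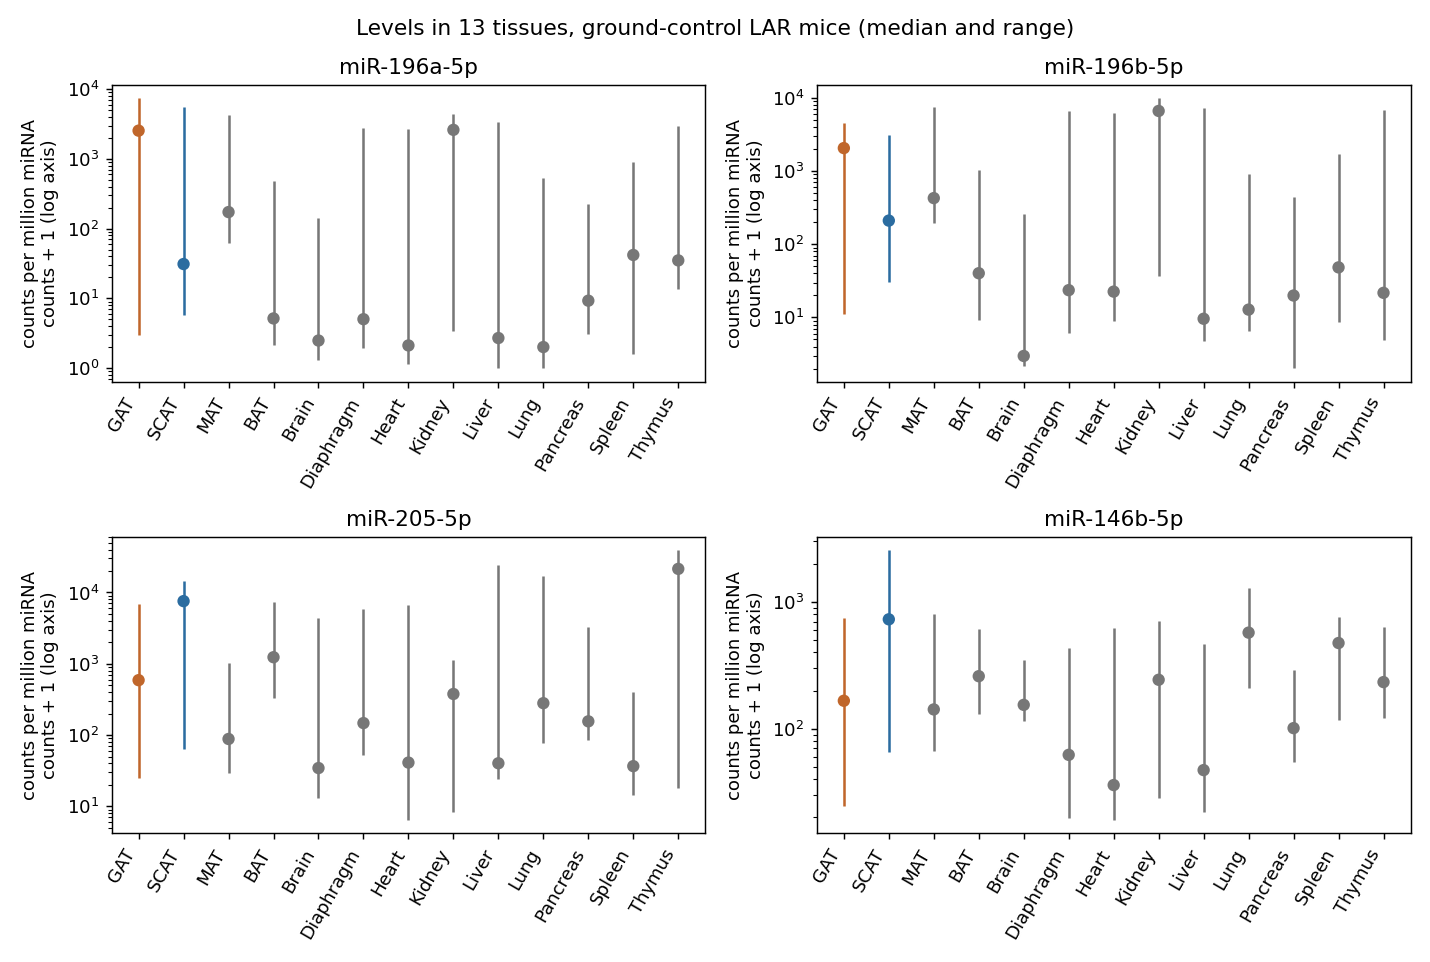
CPM plus 1 (log axis) of miR-196a-5p, miR-196b-5p, miR-205-5p and miR-146b-5p in 13 tissues of ground LAR mice, with points at medians and lines from the lowest to the highest library. Kidney and GAT share the top for miR-196a-5p (2616 and 2549), and thymus and SCAT for miR-205-5p (21408 and 7557).

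The depots were then compared within each arm and age. miR-196a-5p did not overlap between the depots of HGC mice, with 1057 to 7391 in GAT and 4.83 to 312 in SCAT, and had a log2 fold change of 5.55 (edgeR adjusted p = 0.00105). In VGC mice it was 0.80 (adjusted p = 0.867). Of the 6 libraries named above for miR-196a-5p as nearest to another tissue, 5 were VGC, as was SCAT of VGC2, nearest to its own label. The difference between the arms of 4.75 did not pass (adjusted p = 0.189). miR-205-5p had medians of 393 in GAT and 8317 in SCAT of HGC and of 717 and 5707 in VGC, and its ranges overlapped in each arm. Its log2 fold change passed in neither, at −1.99 in HGC (edgeR adjusted p = 0.176) and −2.18 in VGC (adjusted p = 0.253). In TERM the direction held in both arms. miR-196a-5p did not overlap in either, with 1199 to 5918 in GAT and 1.32 to 68.5 in SCAT of HGC (log2 fold change 6.66, edgeR adjusted p = 1.24e-08) and 573 to 5641 against 0.65 to 286 in VGC (5.82, adjusted p = 1.62e-07). miR-205-5p had −2.53 in VGC of TERM (adjusted p = 0.00213) and −1.50 in HGC, where it did not pass (adjusted p = 0.067).

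Age was compared over both arms of LAR. At 3 months the fold of miR-196a-5p was 3.23 (adjusted p = 0.0929) and at 8 months 1.39 (adjusted p = 0.557), and the difference of 8 minus 3 months, −1.84, did not pass (adjusted p = 0.729). In TERM the folds were 6.87 (edgeR adjusted p = 6.23e-09) and 5.38 (adjusted p = 1.52e-07), with a difference of −1.49 (adjusted p = 0.445). The fold of miR-205-5p in LAR passed at neither age, with −1.90 at 3 months (adjusted p = 0.217) and −2.54 at 8 months (adjusted p = 0.135). In TERM it had −1.40 (adjusted p = 0.126) and −2.54 (adjusted p = 0.00165). Over all miRNAs, in LAR, 30 were called in HGC (16 higher, 14 lower) and 18 in VGC (13 and 5), and the interaction of arm and depot called 2, miR-6538 and miR-7033-5p. At 3 months 34 were called and at 8 months 3, and the interaction of age called 4, miR-106a-5p, miR-20b-5p, miR-217-5p and miR-344d-3p. Outside the pools both interactions called 0 by edgeR, with 55 and 58 miRNAs at an unadjusted p under 0.05. These 6 miRNAs are named after their values were seen.

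The share of the 7 RNA classes was compared as percent of all counts. In LAR miRNAs took 2.94% ± 2.96 (SD, n = 20) in GAT and 3.84% ± 1.99 (SD, n = 20) in SCAT, and no class passed the threshold (permutation test, two-sided, 100000 resamples, adjusted p = 0.739 for miRNA). None passed with the mouse as a block either (adjusted p = 0.782 for miRNA). The tests outside the pools and in TERM did not pair the depots. Outside the pools miRNAs took 2.25% ± 1.20 (SD, n = 15) in GAT and 3.93% ± 0.900 (SD, n = 15) in SCAT (adjusted p = 0.00245), snoRNAs 4.91% and 7.69% (adjusted p = 0.00777), and tRNAs 75.6% and 68.2% (adjusted p = 0.0164). In TERM miRNAs took 2.28% and 4.55% (adjusted p = 0.0267), and outside the pools 2.13% and 3.29% (adjusted p = 0.062).

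Within the other classes, each scaled to its own total, calls depended on the libraries. tRNA features had 0 of 407 called in LAR (0%), with 71 at an unadjusted p under 0.05 by edgeR and 13 called by DESeq2. Outside the pools 56 of 406 were called (13.8%), 55 of them higher in GAT. In TERM 285 of 402 were called (70.9%), 59 higher and 226 lower at a class median of −0.70, and outside the pools 150 (37.3%), 67 higher and 83 lower at a median of −0.26. tRNA-Cys features were the largest group, and their reads are shared by near-identical genes. Of 54, 45 were higher and 0 lower in GAT outside the pools at a median of 1.23, and 45 higher and 1 lower in TERM at a median of 0.73. In LAR with all libraries their median was 0.75 and 0 were called by edgeR. The 55 tRNA features higher outside the pools held 17 distinct sets of counts.

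Scaled to the class total, 94 of 216 rRNA features were called in LAR (43.5%) and 0 of them higher in GAT, 105 of 205 outside the pools (51.2%), of which 1 was higher, and 82 of 225 in TERM (36.4%), of which 0 were higher. In TERM outside the pools 132 of 221 were called (59.7%), 38 higher and 94 lower. Of the 5S genes named n-R5s, 72 of 144 were lower in LAR, 79 of 138 outside the pools and 60 of 147 in TERM, with 0 higher in each, at medians of −0.36, −0.56 and −0.38. In TERM outside the pools 67 of 145 were lower and 30 higher. n-R5s56 had 497, 928 and 2656 counts per 1 M rRNA counts in GAT and 737, 1361 and 2856 in SCAT, which overlapped (−0.56, edgeR adjusted p = 0.0132). With TMM factors the split in LAR turned to 38 higher and 71 lower, and with DESeq2 to 38 higher and 20 lower, so that the direction of rRNA as a whole depended on the scaling and, in TERM, on the libraries.

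Most snoRNA calls of LAR were not called in TERM. In LAR 52 of 758 were called (6.86%), 51 of them higher in GAT, and these 51 held 12 distinct sets of counts. Outside the pools 126 of 716 were called (17.6%) and in TERM 15 of 738 (2.03%). None of the 50 higher features tested in TERM was higher there, and the 1 lower feature was called lower there too. Outside the pools, 4 of 116 higher and 1 of 5 lower features were called in the same direction in TERM. The block left 0 by edgeR, with 28 at an unadjusted p under 0.05, and leaving out the 11 pools and the 3 further libraries left 1. Gm22834, Gm24862 and Gm23310, whose counts were nearly the same, had log2 fold changes of 1.78 and 1.79 in LAR (adjusted p = 0.0197) and −0.79 and −0.78 in TERM. Gm26287 was lower in both (−0.36, adjusted p = 0.0197, and −0.58, adjusted p = 0.00172).

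snRNA features had 0 of 729 called in LAR (0%), with 15 at an unadjusted p under 0.05 by edgeR and 0 called by DESeq2, 0 of 716 outside the pools (0%), with 78 at an unadjusted p under 0.05, and 3 of 739 in TERM (0.406%). piRNA features had 0 of 649 called in LAR (0%), with 53 at an unadjusted p under 0.05 and 4 called by DESeq2. Outside the pools 95 of 593 were called (16%), 63 higher and 32 lower. In TERM 90 of 633 were called (14.2%), 15 higher and 75 lower. Of the calls outside the pools, 1 of 56 higher and 5 of 32 lower were repeated in TERM, against 2.39% and 2.75% of all. oocyte_piRNA164 was lower in GAT at −1.40 (edgeR adjusted p = 0.101) with all LAR libraries, −1.95 outside the pools (adjusted p = 2.1e-06) and −1.12 in TERM (adjusted p = 0.0083). lncRNA features had 0 of 3028 called in LAR (0%), with 256 at an unadjusted p under 0.05 and 95 called by DESeq2. Outside the pools 678 of 2731 were called (24.8%), 647 higher and 31 lower. In TERM 35 of 3128 were called (1.12%), 17 higher and 18 lower. Of the calls outside the pools, 8 of 620 higher and 6 of 31 lower were repeated in TERM, against 0.669% and 0.708% of all.

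**Figure D5:**
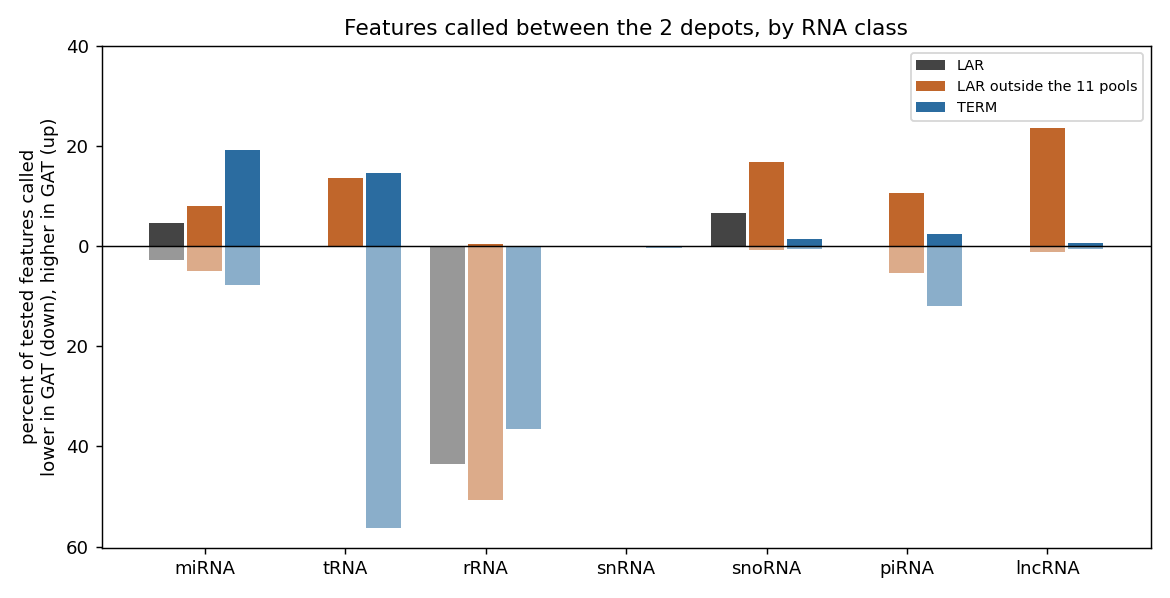
Percent of tested features called at an adjusted p under 0.05 in 7 RNA classes, upward when higher and downward, in paler colour, when lower in GAT, for LAR, LAR outside the 11 pools and TERM. miRNAs are called in both directions in each set, rRNA features nearly all downward, and lncRNA features mostly in LAR outside the pools (24.8% against 1.12% in TERM).

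Transcripts that hold a miRNA also had counts in the lncRNA table. Mir205hg, the host of miR-205, had −2.41 in LAR (edgeR adjusted p = 0.151), −2.87 outside the pools (adjusted p = 0.000163) and −2.21 in TERM (adjusted p = 0.000884), and its count was 100% to 103% of the miR-205-5p count in every library, so that it is no separate measurement. Gm28653, which spans Mir206, has 2 transcripts in the table. ENSMUST00000185494.1 had −2.19 in LAR, which was not called (adjusted p = 0.146), −1.94 outside the pools (adjusted p = 0.00552) and −4.68 in TERM. In each library the larger count of the 2 transcripts was 182% to 24264% of the miR-206-3p count, and how many reads they share was not tested. These transcripts and oocyte_piRNA164 were chosen after their values were seen.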

How the data were processed

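Small RNA libraries of both depots were taken from the ground arms only. Per the study's methods, the authors mapped reads with miRMaster to GRCm39 and miRBase. For miRNAs the authors deposited estimated counts, of which 1.63% of values above 0 carried a fraction. The tables of the other 6 classes (lncRNA, piRNA, snoRNA, snRNA, rRNA, tRNA) that the authors deposited hold whole counts. Blank cells were read as 0, and estimated counts were rounded for edgeR and DESeq2. The circRNA and scaRNA tables were not used. Adapter and quality settings are not given in the sources used here.

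Groups came from the labels. Each class was scaled to its own total in a library. Features with at least 5 counts in at least 10% of the libraries of a depot were tested. edgeR 4.0.16 (limma 3.58.1, R 4.3.3) fitted groups of depot and arm by quasi-likelihood, with the contrast of GAT minus SCAT averaged over the arms, and groups of depot and age in a separate fit, and a feature was called when its p, adjusted after Benjamini and Hochberg, was under 0.05. DESeq2 1.42.0, TMM factors, other filters, plate and the mouse as a block were alternatives. Shares were compared by permutation in scipy 1.17.1, with pandas 2.3.3, numpy 2.4.6 and matplotlib 3.10.9 in Python 3.11.15. Intervals are not given for single counts, and a count of 0 allows up to 3 counts. The scripts were tested on simulated data.

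Named miRNAs were both markers, the list members and, per direction, the 10 smallest adjusted p among calls with a log2 fold change beyond 1, at least 10 CPM (counts per 1 M of the class) in the higher depot and a call of the same sign outside the pools, and for other classes 3 per direction. The members and lists were chosen with earlier results of these data known. Same-numbered samples of an arm and extraction came from the same mouse, so that the numbers pair the depots. Their deviations correlated at a median of −0.00697 in LAR (5 of 20 pairs over 0.1) and 0.0613 in TERM (8 of 20). P-values measure the spread between mice, and library plates and pools are those that the study lists.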

Additional observations from a re-analysis of the deposited data

Results flagged for a closer look

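Within groups of 10 libraries, 18 of 168 groups had 1 library far from the other 9 for a named miRNA, by a gap rule that chance meets in about 1 group in 20. Of these, 12 were in libraries of the 11 pools. Values are CPM, counts per 1 M miRNA counts.

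In SCAT of HGC11 in TERM, nearest to brown fat, miR-205-5p stood low at 808 and miR-196b-5p at 20.5. In SCAT of HGC11 in LAR, nearest to diaphragm, miR-196b-5p stood at 30.0. GAT of VGC1 in LAR, nearest to pancreas, had 320 of miR-1931 and 1830 of miR-6240, and SCAT of VGC12, nearest to spleen, had 947 of miR-6240. GAT of HGC14 in LAR, nearest to mesenteric fat, had 379 of miR-34c-3p and 349 of miR-449a-5p. GAT of HGC4 in TERM, also nearest to mesenteric fat, had 223 of miR-449a-5p and 5120 of miR-1a-3p. SCAT of VGC2 in TERM, nearest to spleen, had 175 of miR-146b-5p, and SCAT of HGC16 in LAR, nearest to diaphragm, had 2.92 of miR-184-3p.

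Outside the pools, the values that stood apart were in libraries nearest to their own label. miR-6240 was 3570 in GAT of HGC16 in LAR and 566 in SCAT of HGC1 in TERM, where miR-184-3p was 1290. miR-34b-3p was 23.8 in SCAT of HGC5 in TERM. GAT of VGC2 in TERM had 0.722 of miR-214-5p and 133 of miR-199a-5p.

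For 18 named features the fold of GAT over SCAT differed between LAR and TERM by edgeR at an adjusted p under 0.05. In muscle miRNAs the log2 difference of LAR minus TERM was 2.53 for miR-133a-3p, 2.52 for miR-133a-5p, 2.44 for miR-133b-3p, 2.43 for miR-1a-3p and 3.20 for miR-206-3p, and it was 3.38 for miR-133a-3p outside the pools. It was −3.06 for miR-196a-5p, and was not fitted without the 3 further libraries. In smooth muscle miRNAs it was −1.01 for miR-143-3p, −1.10 for miR-145a-3p and −1.22 for miR-145a-5p. For miR-6240 it was 3.39, and 3.53 outside the pools.

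In miRNAs of pancreas, kidney and gut the difference was 6.25 for miR-216a-5p, 5.38 for miR-216b-5p, 6.82 for miR-217-5p, 4.48 for miR-375-3p and 5.70 for miR-802-5p. Outside the pools none of these passed, at 0.76, −0.06, 0.15, −0.50 and 1.20. For the snoRNA features Gm22834, Gm24862 and Gm23310 it was 2.57 each, and 1.53 to 1.55 outside the pools (adjusted p = 0.135). Between ages in LAR, the fold of miR-217-5p differed by −8.19 (8 minus 3 months, adjusted p = 0.0364) with all libraries and by 1.42 (adjusted p = 0.828) outside the pools.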

How the results depend on the processing

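With each of the 40 libraries left out in turn, an alternative chosen after seeing the data, 50 to 78 miRNAs were called in LAR, the fewest without SCAT of VGC16 and the most without SCAT of VGC12. The mouse as a replicate block, which pairs the depots, gave 25 miRNA calls in place of 59, 0 snoRNA calls in place of 52, 4 piRNA and 2 lncRNA calls in place of 0. Outside the 11 pools there were 99 miRNA, 56 tRNA, 126 snoRNA, 95 piRNA and 678 lncRNA calls. With the replicate block as well, chosen after seeing the data as was leaving out the 3 further libraries, there were 27, 45, 0, 35 and 172, and without the pools and the further libraries 179, 63, 1, 99 and 613. The further libraries were picked by their miRNA profile, so that miRNA results without them are no separate check. Plate as a covariate gave 5 miRNA calls and the Wilcoxon rank-sum test 31. TMM factors gave 6 tRNA and 2 piRNA calls, no filter 17 piRNA and 12 lncRNA calls, and DESeq2 13 tRNA, 58 rRNA, 4 piRNA and 95 lncRNA calls, with 48 miRNA calls split 22 higher and 26 lower.

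In TERM the replicate block gave 149 tRNA (285 without it), 34 rRNA (82), 1 snRNA (3), 18 piRNA (90) and 19 lncRNA (35) calls. Outside the pools there were 150 tRNA, 132 rRNA (38 higher and 94 lower), 7 snRNA, 34 snoRNA (15) and 28 piRNA calls, and with the block as well 102 tRNA, 0 snRNA, 2 snoRNA and 16 piRNA calls.

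Outside the pools, chosen after seeing the data for the interactions, that of arm called 0 miRNAs (2 with all libraries), 5 piRNAs (3) and 58 lncRNAs (0). That of age called 0 miRNAs (4), 0 tRNAs (9) and 0 lncRNAs (4). The difference of LAR and TERM called 0 tRNAs (76), 6 snRNAs (0), 43 piRNAs (0) and 390 lncRNAs (9). The differences in class share grew to −1.67 percentage points for miRNA (−0.895 with all libraries), 7.39 for tRNA (2.89) and −2.78 for snoRNA (−1.32). Where edgeR called 0 outside the pools, 55 miRNAs for arm, 58 miRNAs, 15 tRNAs and 111 lncRNAs for age and 75 tRNAs for LAR against TERM had an unadjusted p under 0.05, as had 28 snoRNAs with the block in LAR, 36 with both and 40 snRNAs with both in TERM. The cause of these changes was not tested.

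Of 24 named features, for which a call outside the pools was mostly part of the choice, 24 kept their call with no filter and with filterByExpr, 23 with TMM factors and 20 with DESeq2 or without the pools and the further libraries, while 12 kept it with the block. None changed direction. In 21 miRNAs 14 kept it when scaled to the 7 classes or by rank-sum test, and 1 with plate. The shallowest libraries, with 0.554 M miRNA counts in SCAT and 0.594 M in GAT, limit the scarce miRNAs.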
